A study of Mus musculus with 8 samples.

Results

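Lymphocyte cytokines and cytokine ligands that are textbook targets of the transcription factor NFAT were examined in primary mouse vascular smooth muscle cells, the contractile cells of the arterial wall. The members were the 10 genes Il2, Il3, Il4, Il5, Ifng, Csf2, Tnf, Cd40lg, Fasl and Tnfsf11, and were found as the probes that carry 1 of these gene names in the array files. They were measured by 14 of the 41174 probes, and are 10 of the 28786 genes and transcripts on the array. The rule uses gene names and no measured value. Fasl was well above background on all 8 arrays, Tnf on 4 and each of the other 8 members on at most 3. That Fasl reading came from 1 probe, a single spot per array, and the other Fasl probe, of 10 spots, was well above background on 0 arrays. Neither Fasl nor Tnf differed between the groups beyond the spread of the cultures.

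The cells came from aortas of C57BL/6 mice. All 8 cultures received 1 µM angiotensin II (AngII), the peptide hormone that constricts arteries. The AngII group of 4 independent cultures received nothing else, and the AngII+CsA group of 4 also received 200 ng/ml cyclosporin A (CsA), which binds cyclophilin and inhibits the phosphatase calcineurin. RNA of each culture was hybridised to 1 one-colour array, and no age, sex or treatment time is given in the sources used here. Cultures without angiotensin II were not analysed here, so no induction by angiotensin II was measured.

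Calcineurin removes phosphates from NFAT proteins when cell calcium rises, and NFAT then enters the nucleus and binds DNA at GGAAA cores, often beside AP-1. In activated T lymphocytes this switches on Il2, Il4, Ifng and the other genes examined here, and its block by cyclosporin underlies the drug's use against transplant rejection. Smooth muscle cells also hold NFAT and calcineurin, and a well known calcineurin-dependent transcript in them is Rcan1, a feedback inhibitor of calcineurin.

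The sequences that decide what a signal stands for are the probes themselves, 60 bases long and given in the sense of the transcript. The files place each probe on build mm7 and do not annotate exons or untranslated regions. The 3 probes printed whole, of Fasl, Il2 and Il3, hold coding sequence, and of the others printed the first 30 bases are shown. No base is marked in these lines.
Fasl A_52_P173985: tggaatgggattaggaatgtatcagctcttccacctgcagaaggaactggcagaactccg
Fasl A_52_P77106: agggtgggtctacttactacctcacagagg
Tnf A_51_P385099: tgggctttccgaattcactggagcctcgaa
Il2 A_52_P541353: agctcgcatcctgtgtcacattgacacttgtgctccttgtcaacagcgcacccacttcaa
Il3 A_52_P98630: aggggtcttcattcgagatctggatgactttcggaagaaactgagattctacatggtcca
Tnfsf11 A_51_P465640: acaggttgtgtatatgtaaagtccataggt
Tnfsf11 A_52_P488947: gtcattgcaaagaaatgatagtgtgaaggg
The first Fasl probe lies at chr1:161750452-161750511 and the second at chr1:161743675-161743734, both on the minus strand. The Tnf probe lies at chr17:33296067-33296126 on the minus strand. The Il2 probe A_52_P541353 lies at chr3:36936615-36936674 on the minus strand. The Il3 probe lies at chr11:54222252-54222311, and the Tnfsf11 probes at chr14:72958725-72958784 and chr14:72958504-72958563, all on the minus strand. No member probe shared more than 16 bases in a row with any other probe on the array, on either strand; that longest run was between Il4 and Srebf2. Their content of G and C ran from 35.0% to 51.7%, against a median of 40% over all probes.

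The upstream windows of the members show where the NFAT core motif sits. RefSeq (build GRCm38.p6) gave the 250 bases before a gene start for 9 of the 10 members, with 2 starts for Il4. Printed are 3 genes, the 2 members with a probe well above background on at least 4 arrays and Il2, the best studied NFAT target. Each GGAAA, or its reverse complement TTTCC, is in capitals.
Fasl upstream: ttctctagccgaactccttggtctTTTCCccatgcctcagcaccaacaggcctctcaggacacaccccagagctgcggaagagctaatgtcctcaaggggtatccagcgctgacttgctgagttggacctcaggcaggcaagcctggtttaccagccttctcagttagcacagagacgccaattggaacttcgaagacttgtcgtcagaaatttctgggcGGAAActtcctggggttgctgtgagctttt
Il2 upstream: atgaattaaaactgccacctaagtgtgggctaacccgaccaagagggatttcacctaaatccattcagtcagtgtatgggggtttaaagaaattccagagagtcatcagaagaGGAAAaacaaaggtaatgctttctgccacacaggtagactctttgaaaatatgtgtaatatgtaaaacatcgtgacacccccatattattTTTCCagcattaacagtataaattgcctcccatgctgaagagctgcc
Tnf upstream: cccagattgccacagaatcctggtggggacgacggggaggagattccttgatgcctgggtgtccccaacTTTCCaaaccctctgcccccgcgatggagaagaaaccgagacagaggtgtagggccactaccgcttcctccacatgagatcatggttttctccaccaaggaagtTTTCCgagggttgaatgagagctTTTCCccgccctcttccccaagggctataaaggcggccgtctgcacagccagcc
The windows are chr1:161788496-161788745 for Fasl, chr3:37125955-37126204 for Il2 and chr17:35202008-35202257 for Tnf, all on the minus strand and printed in the direction of transcription. GGAAA was found on either strand in 9 of 10 member windows, and in 55.6% of all 32841 windows of this length. Il2 and Fasl each held 2 matches and Tnf held 3, and 21.4% and 6.39% of all windows held at least as many. The window of 1 Il4 start held 5 matches, and 0.390% of all windows held at least as many, while the window of the other held 0. The AP-1 motif TGACTCA, or its reverse complement, was in 0 of 10 member windows and in 4.46% of all windows. A match is a description of the letters and not a binding site.

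Arrays of the same replicate number share a slide, so the 4 slides each hold 1 array of both groups. Between 42.8% and 51.7% of the 43379 spots on an array were well above background, a mark that the scanner software sets for each spot, and no spot was saturated. The lowest signal so marked was 8.05 to 10.2 scanner units, and the 95th percentile of 153 negative controls was 2.11 to 3.39. The arrays of replicates 2 and 4 had the highest share of marked spots in both groups, 48.3% to 51.7%, against 42.8% to 47.4% for replicates 1 and 3. Slide 1 stood apart in another way: 85 probes were marked on both of its arrays only and were over 4 log2 brighter there, against 0, 2 and 1 on slides 2, 3 and 4. The labelled cell type was checked against its markers: 11 of 14 smooth muscle markers were well above background on all 8 arrays, beside 43.2% of all genes. Among them were Acta2, Tagln and Myh11, while Des and Mylk were on 5 arrays and Myocd on 1. Of 8 adventitial fibroblast markers 6 were on all 8 arrays as well, so this check does not tell smooth muscle from such fibroblasts. Rcan1 was at 5.01 ± 0.61 in the AngII cultures and at 2.75 ± 0.69 under AngII+CsA (SD, n = 4 each), on the log2 scale relative to the 75th percentile of each array. The Rcan1 difference of -2.26 passed only with the replicate number as a block (adjusted p = 0.0132, limma with Benjamini-Hochberg adjustment; 1.00 on the groups alone). That call was lost where the blocked fit kept dim probes and with any 1 pair left out.

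Of the 10 members, 4 had a probe well above background on at least 1 array: Il2, Tnf, Fasl and Tnfsf11. Over all genes the share was 62.7%. Tnf and Fasl had a probe above background on at least 4 arrays, beside 51.8% of all genes, and Fasl alone on all 8, beside 43.2% of all genes. Il3, Il4, Il5, Ifng, Csf2 and Cd40lg were well above background on none. A probe printed at several spots counted on an array where at least 50% of its spots were marked. The count of 2 members on at least 4 arrays fell to 1 when AngII replicate 2 or 4 or AngII+CsA replicate 2 or 4 was left out, since Tnf then had 3.

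**Figure D1:**
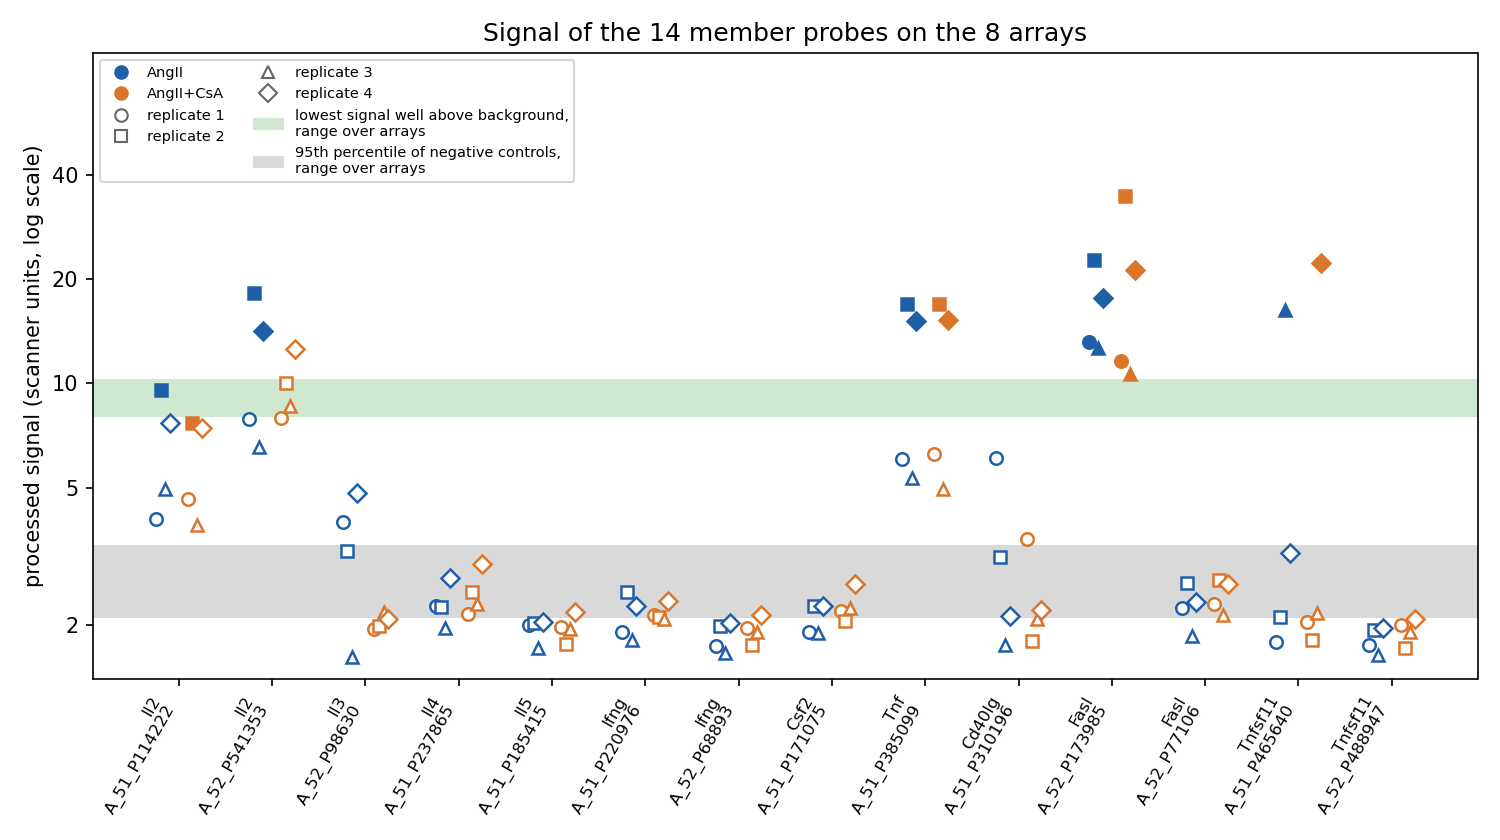
Processed signal in scanner units (log scale) of each member probe on each array, blue for AngII and orange for AngII+CsA, with a symbol for each replicate number; filled symbols were well above background. The green band is the range over arrays of the lowest marked signal and the grey band that of the 95th percentile of negative controls. Only Fasl A_52_P173985 is filled on all 8 arrays, and the Tnf probe is filled for replicates 2 and 4 of both groups.

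A looser mark from the scanner software, a signal positive and significant against the local background, was reached on at least 4 arrays by 6 members, Il2, Il3, Il4, Tnf, Fasl and Tnfsf11, beside 68.6% of all genes. A signal above the 95th percentile of the negative controls was reached on at least 4 arrays by 3 members, Il2, Tnf and Fasl, beside 67.6% of all genes. Il2, Tnf and Fasl were above the controls on all 8 arrays. In bulk RNA, few expressing cells and little RNA per cell cannot be told apart.

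Among the ligands of the TNF family, Fasl, which triggers death of cells that carry the receptor Fas, was the member measured on every array. Its probe A_52_P173985 read 13.2, 22.7, 12.6 and 17.6 scanner units with AngII, replicates 1 to 4, and 11.6, 34.7, 10.7 and 21.2 with AngII+CsA. The AngII values lay inside the range of the AngII+CsA values, and replicates 2 and 4 were the highest in both groups. Relative to each array's 75th percentile its log2 level was -2.53 ± 0.15 under AngII and -2.62 ± 0.58 under AngII+CsA (SD, n = 4 each). The difference, AngII+CsA minus AngII, was -0.09 with a 95% interval of -0.76 to 0.58, a fold of 0.939 (0.590 to 1.49). It did not pass (limma adjusted p = 1.00 with Benjamini-Hochberg adjustment; 0.965 with the block, where the interval was -0.60 to 0.42). Within slides 1 to 4 the differences were -0.43, 0.63, -0.61 and 0.05, lower with cyclosporin on 2 of 4 slides. The sign turned, to 0.01, with arrays centred on the median, with quantile normalization and in the authors' deposited table, and to 0.02 with the block and without slide 1.

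The second Fasl probe, A_52_P77106, starts 6777 bases from the first, downstream on the minus strand. It was well above background on 0 of 8 arrays, at 1.86 to 2.66 scanner units with AngII and 2.15 to 2.70 with AngII+CsA. The 2 probes thus disagree on whether Fasl was measured, and the reading above rests on 1 spot per array. Over the 8 arrays the 3 genes whose log2 values followed the first Fasl probe most closely were B3galt1 (Pearson r = 0.944), the transcript AK085302 (0.940) and Pcdha9 (0.912), out of 12394 compared. The 99th percentile of that r over those genes was 0.735, and all genes share the arrays and slides.

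Tnf encodes the inflammatory cytokine of the same name, which smooth muscle and macrophages can make as well as lymphocytes. The geometric means of its 10 spots were 6.06, 16.9, 5.34 and 15.1 scanner units with AngII and 6.24, 16.95, 4.97 and 15.2 with AngII+CsA. The groups overlapped fully, and the replicates fell into 2 levels that both groups shared, high on slides 2 and 4 and low on slides 1 and 3. On slides 2 and 4, 8 to 10 of the 10 spots were marked as well above background, and on slides 1 and 3, 0 to 3. Those are the slides with more marked spots over the whole array, and the part of this in the Tnf levels was not tested. On the scale relative to the 75th percentile the split remained, -2.98 to -2.77 against -4.08 to -3.60.

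The Tnf log2 level was -3.28 ± 0.53 under AngII and -3.49 ± 0.65 under AngII+CsA (SD, n = 4 each). The difference was -0.22 (95% interval -1.05 to 0.61), a fold of 0.860 (0.483 to 1.53), with an adjusted p of 1.00 by limma with Benjamini-Hochberg adjustment. With the block the interval narrowed to -0.50 to 0.07 and the limma adjusted p was 0.895. Within slides 1 to 4 the differences were -0.20, 0.01, -0.47 and -0.21, and without slide 1 the blocked difference was -0.22. In scanner units Tnf was lower with AngII+CsA on slide 3 only. The 75th percentile that was subtracted was higher with AngII+CsA on slides 1, 3 and 4, and its part in the difference was not tested. Exact permutation of the group labels, two-sided, gave p = 0.543 for Tnf and 0.857 for Fasl, both 0.857 after Benjamini-Hochberg adjustment over the 2, where the smallest p that 4 against 4 allows is 0.0286. That permutation ignored the slides. Exact flipping of the signs of the within-slide differences gave an unadjusted p of 0.25 for Tnf and a larger one for Fasl. The smallest p that this flipping allows is 0.125. Repeat spots of Tnf within an array had a median SD of 0.42 log2, and array means had an SD of 0.56.

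**Figure D2:**
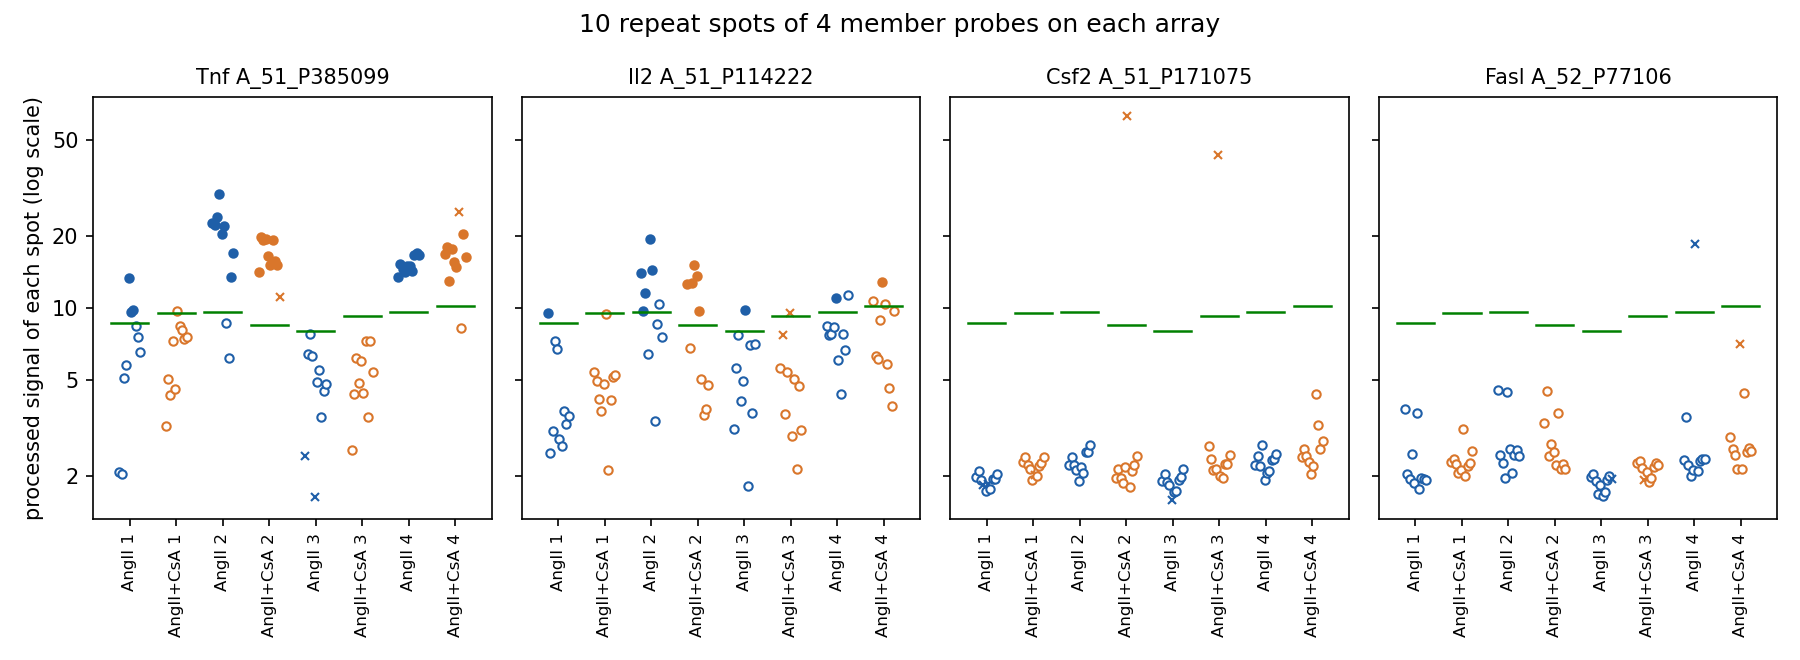
Signal of each of the 10 repeat spots (log scale) of 4 member probes on each array, with filled points well above background, crosses for spots marked as outliers and green lines at the lowest marked signal of that array. Tnf spots lie mostly above the line on slides 2 and 4 and mostly below it on slides 1 and 3, Il2 spots straddle it on slide 2, and Csf2 spots lie near 2 units apart from single bright spots, while those of the second Fasl probe spread from about 2 to 5 units on several arrays.

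Tnfsf11 encodes RANKL, the ligand that drives osteoclast formation and that is linked to vascular calcification. Its probe A_51_P465640, a single spot per array, read 1.79, 2.12, 16.3 and 3.24 scanner units with AngII and 2.04, 1.82, 2.17 and 22.3 with AngII+CsA. It was bright on AngII replicate 3 and AngII+CsA replicate 4 only, 1 array of each group on different slides, and not well above background on the slide partner of each. Of these partners, AngII replicate 4 at 3.24 was above the 95th percentile of its negative controls, 2.55. The other, AngII+CsA replicate 3 at 2.17, was below its own, 2.44. The other Tnfsf11 probe, which starts 221 bases away on mm7, read 1.64 to 2.08 on all 8 arrays. No fold is given for this gene. Of 40929 probes printed once, 1112 were marked on exactly 1 array of each group, and for 250 of those the 2 arrays were on different slides. Cd40lg, the ligand by which helper T cells activate B cells, read 6.09, 3.16, 1.75 and 2.13 with AngII and 3.55, 1.80, 2.09 and 2.21 with AngII+CsA. Its highest values were both on slide 1, and none reached the mark.

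Il2, the T cell growth factor and classical cyclosporin-sensitive gene, lay above the negative controls on all 8 arrays and was well above background on 3. Probe A_51_P114222 read 4.06, 9.57, 4.96 and 7.69 scanner units with AngII, as geometric means of 10 spots, and 4.64, 7.67, 3.89 and 7.42 with AngII+CsA. It was marked on replicate 2 of both groups, each with 5 of 10 spots. Probe A_52_P541353, in the same coding region, read 7.91, 18.3, 6.57 and 14.2 with AngII and 7.92, 10.01, 8.62 and 12.6 with AngII+CsA. It was marked on AngII replicates 2 and 4 and on no AngII+CsA array, and the ranges of the groups overlapped. The unmarked readings of 10.01 and 12.6 on AngII+CsA replicates 2 and 4 lay above the lowest marked signal of those arrays, 8.52 and 10.2. With each AngII+CsA value under the detection limit raised to it, the AngII mean was 1.21-fold higher, a description of these arrays that no test supports. The AngII readings of 7.91 and 6.57 also lay under the limit and were kept as read, so this is not a lower bound. The measured means were -3.10 ± 0.33 and -3.47 ± 0.23 (SD, n = 4 each, log2). With no filter on dim probes the differences were -0.34 (-0.90 to 0.23) and -0.37 (-0.92 to 0.18), each with a limma adjusted p of 1.00, and 0.421 with the block, after Benjamini-Hochberg adjustment. A one-sided pattern of this kind, marked on at least 2 arrays of AngII and none of AngII+CsA, was found for 0.379% of all 41174 probes, and the opposite for 0.381%.

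Il3, a growth factor of blood progenitors and mast cells, was well above background on no array. It read 3.97, 3.29, 1.62 and 4.82 scanner units with AngII and 1.95, 1.99, 2.18 and 2.08 with AngII+CsA. On 3 AngII arrays it was above every AngII+CsA array, and on AngII replicate 3 it was below them all. With no filter on dim probes the log2 difference was -0.84 (-1.50 to -0.18), with a limma adjusted p of 1.00, and 0.421 with the block, after Benjamini-Hochberg adjustment. Il3 was above the 95th percentile of the negative controls on 2 arrays, so no fold is given.

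Il4 and Il5, cytokines of type 2 helper T cells, read 1.96 to 3.00 and 1.72 to 2.18 scanner units over the 8 arrays. Csf2, which encodes the growth factor GM-CSF and lies beside Il3, read 1.90 to 2.64. Ifng, the cytokine of type 1 helper and NK cells, read 1.81 to 2.50 with A_51_P220976 and 1.67 to 2.14 with A_52_P68893. These values lie at the level of the negative controls, and both groups overlapped for each probe. Single bright spots occurred among the repeats of these probes: 62.9 and 43.1 units for Csf2 on AngII+CsA replicates 2 and 3, 24.2 for Il4 on AngII+CsA replicate 1, and 21.4 for Ifng on AngII replicate 2. Each of these spots was marked as an outlier on its array and left out. Among sets of 10 spots with at most 1 bright spot, 1 was bright in 10 of 41 member sets (24.4%) and in 146 of 766 sets over all probes printed 10 times (19.1%). These member sets include Il2 A_51_P114222 on AngII replicates 1, 3 and 4 and AngII+CsA replicates 3 and 4. Its spots spread up to the mark there, so the share does not count stray spots alone.

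Over all genes, 0 of 14881 tested (0.00%) passed on the groups alone with limma and Benjamini-Hochberg adjustment, and 43 had an unadjusted p under 0.05. With the replicate block 4 were lower (0.0269%) and 0 higher (0.00%), with 783 at an unadjusted p under 0.05. The 43 on the groups alone are far below the share of 0.05 that no difference at all would give. The error of that fit includes the spread between slides, so its lack of calls is not evidence of no difference. Of the members, 2 could be tested and 0 passed in either fit. With no filter on dim probes all 10 members had a lower mean with AngII+CsA relative to the 75th percentile, with a median log2 difference of -0.20. Of the 10750 genes that were well above background on no array, 81.4% were lower as well, with a median of -0.13, and of the genes on at least 4 arrays 55.9% were lower, with a median of -0.02. The sign of the members is thus that of most dim probes, on scaled values. The 75th percentile subtracted was 86.7, 126, 65.0 and 103 scanner units with AngII, replicates 1 to 4, and 102, 125, 83.9 and 120 with AngII+CsA. It was higher with AngII+CsA on slides 1, 3 and 4, as was the unscaled median of the negative controls. The part of the scaling in the sign of the members was not tested.

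Of 18 genes for receptors of these cytokines, 15 were well above background on at least 1 array, 11 on at least 4 and 9 on all 8, beside 62.7%, 51.8% and 43.2% of all genes. The 9 were Il3ra, Csf2rb, Il4ra, Il13ra1, Tnfrsf1b, Cd40, Fas, Tnfrsf11a and Tnfrsf11b. Csf2ra, Csf2rb2 and Il5ra, which complete receptors for Csf2, Il3 and Il5, were not above background on any. Among 11 receptors tested, 5 were lower, 5 higher and 1 at 0.00, with a median log2 difference of 0.00 beside -0.02 over all genes tested, and 0 passed. Fas, the receptor of Fasl, was 1.93 ± 0.04 with AngII and 1.98 ± 0.26 with AngII+CsA (log2, SD, n = 4), a difference of 0.05 (-0.44 to 0.55). That is probe A_51_P345393; the other Fas probe, A_52_P73385, was above background on 0 arrays, at 1.67 to 2.79 scanner units, and 1 of the 2 Csf2rb probes, A_52_P492939, was likewise on 0. Tnfrsf1b, a Tnf receptor, differed by 0.00 (-0.53 to 0.53). Tnfrsf11b, which encodes the decoy receptor of RANKL, differed by 0.16 (-0.72 to 1.04) and Tnfrsf11a, the signalling receptor, by -0.10 (-0.79 to 0.60). Il4ra differed by 0.25 (-0.53 to 1.03) and was higher in 4 of 4 pairs. Il3ra differed by 0.46 (-1.43 to 2.35), Csf2rb by -0.13 (-0.80 to 0.53), Il13ra1 by 0.01 (-1.01 to 1.03) and Cd40 by -0.03 (-0.89 to 0.83). Ifngr2 differed by -0.43 (-1.32 to 0.45) and Il2rb by -0.26 (-0.89 to 0.37), both lower in 4 of 4 pairs, with a limma adjusted p of 0.894 each with the block after Benjamini-Hochberg adjustment.

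**Figure D3:**
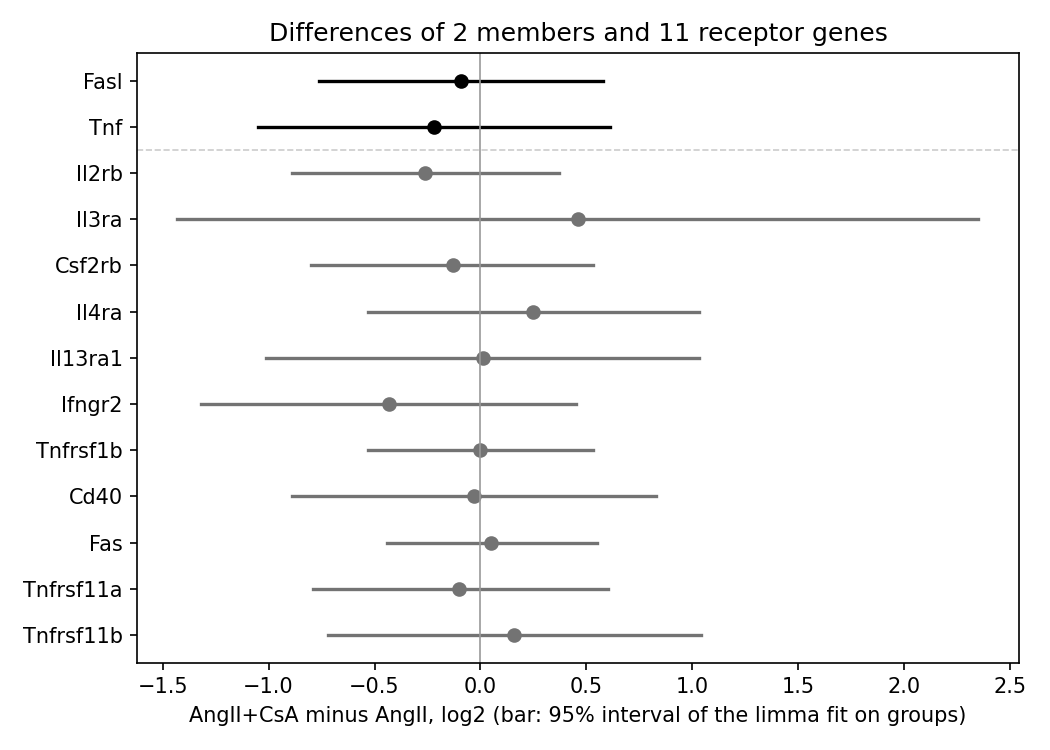
Log2 differences, AngII+CsA minus AngII, of the 2 members that could be tested (black) and the 11 receptor genes measured on at least 4 arrays (grey), with bars for the 95% interval of the limma fit on the groups. Every interval of this unpaired fit spans 0, and the differences run from -0.43 for Ifngr2 to 0.46 for Il3ra. With the block, which is not drawn, Ifngr2 had an unadjusted limma p of 0.0258 and an adjusted p of 0.894.

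Receptors for Ifng and Tnf that most cells carry showed the slide 1 pattern described above. Ifngr1 read 57.5 and 52.1 scanner units on slide 1, AngII and AngII+CsA, and 1.80 to 3.57 on the other 6 arrays. Tnfrsf1a, over 10 spots, read 41.0 and 45.1 on slide 1 and 2.01 to 3.51 on the others. Both treatments on slide 1 read alike, and slide and culture cannot be told apart.

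Of 22 other genes on the array that NFAT drives in T cells, 12 were well above background on at least 1 array and 10 on at least 4, beside 62.7% and 51.8% of all genes. Il21, Ctla4, Pdcd1, Lag3, Havcr2, Cd69, Irf4, Foxp3, Egr3 and Ccl3 were not above background on any. Of the 10 tested, 5 were lower and 5 higher, with a median of -0.01, and Rcan1 passed with the block. Il13, the neighbour of Il4 on the same chromosome, was well above background on all 8 arrays, with 33.9 to 69.1 scanner units with AngII and 40.4 to 76.2 with AngII+CsA. Its log2 difference was 0.20, with a limma adjusted p of 1.00 after Benjamini-Hochberg adjustment. The array holds 1 Il13 probe, a single spot, so no other probe checks this reading. Of 20 genomic neighbours of the members on the array, 14 were above background on at least 1 array and 13 on at least 4, of which 3 were lower, 10 higher and 0 passed (median 0.16). Rad50, a DNA repair gene between Il13 and Il5, differed by 0.49 (-0.19 to 1.17) and Kif3a, a kinesin subunit, by 0.26 (-0.28 to 0.80). Lta and Ltb, the lymphotoxin genes on both sides of Tnf, were above background on no array.

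Of 14 other TNF family ligands 7 were above background on at least 4 arrays, with 6 lower, 1 higher and 0 passing (median -0.11). Tnfsf15 differed by 0.17 (-0.56 to 0.91) and Tnfsf18 by -0.27 (-1.50 to 0.97). Of 31 other interleukins and colony-stimulating factors 19 were, with 11 lower, 7 higher and 0 passing (median -0.05), and the smallest p values were those of Il17f at -0.36 (-0.95 to 0.22) and Il19 at -0.40 (-1.26 to 0.47). Of 21 T helper lineage factors and NFAT partners 13 were, with 4 lower, 9 higher and 0 passing (median 0.05). Fosl1, an AP-1 subunit, differed by 0.47 (-0.39 to 1.32) and Runx1 by 0.30 (-0.47 to 1.06), while Tbx21 and Eomes, which direct T cell lineages, were above background on no array.

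Genes that respond to Ifng and to Tnf were also examined. Of 21 interferon gamma response genes 12 were measured on at least 4 arrays, with 7 lower, 5 higher and 0 passing (median -0.01). Cd74, the invariant chain, differed by -0.32 (-0.85 to 0.21) and Socs1, a feedback inhibitor, by -0.34 (-0.97 to 0.29), and the chemokine genes Cxcl9 and Cxcl11 were above background on no array. Of 18 Tnf response genes 15 were measured, with 10 lower, 5 higher and 0 passing (median -0.05). Vcam1, a leukocyte adhesion molecule, differed by -0.67 (-1.63 to 0.29) and Ccl7, a chemokine, by -0.60 (-1.52 to 0.32). Both were lower in 4 of 4 pairs, and with the block the limma adjusted p was 0.894 for each after Benjamini-Hochberg adjustment.

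**Figure D4:**
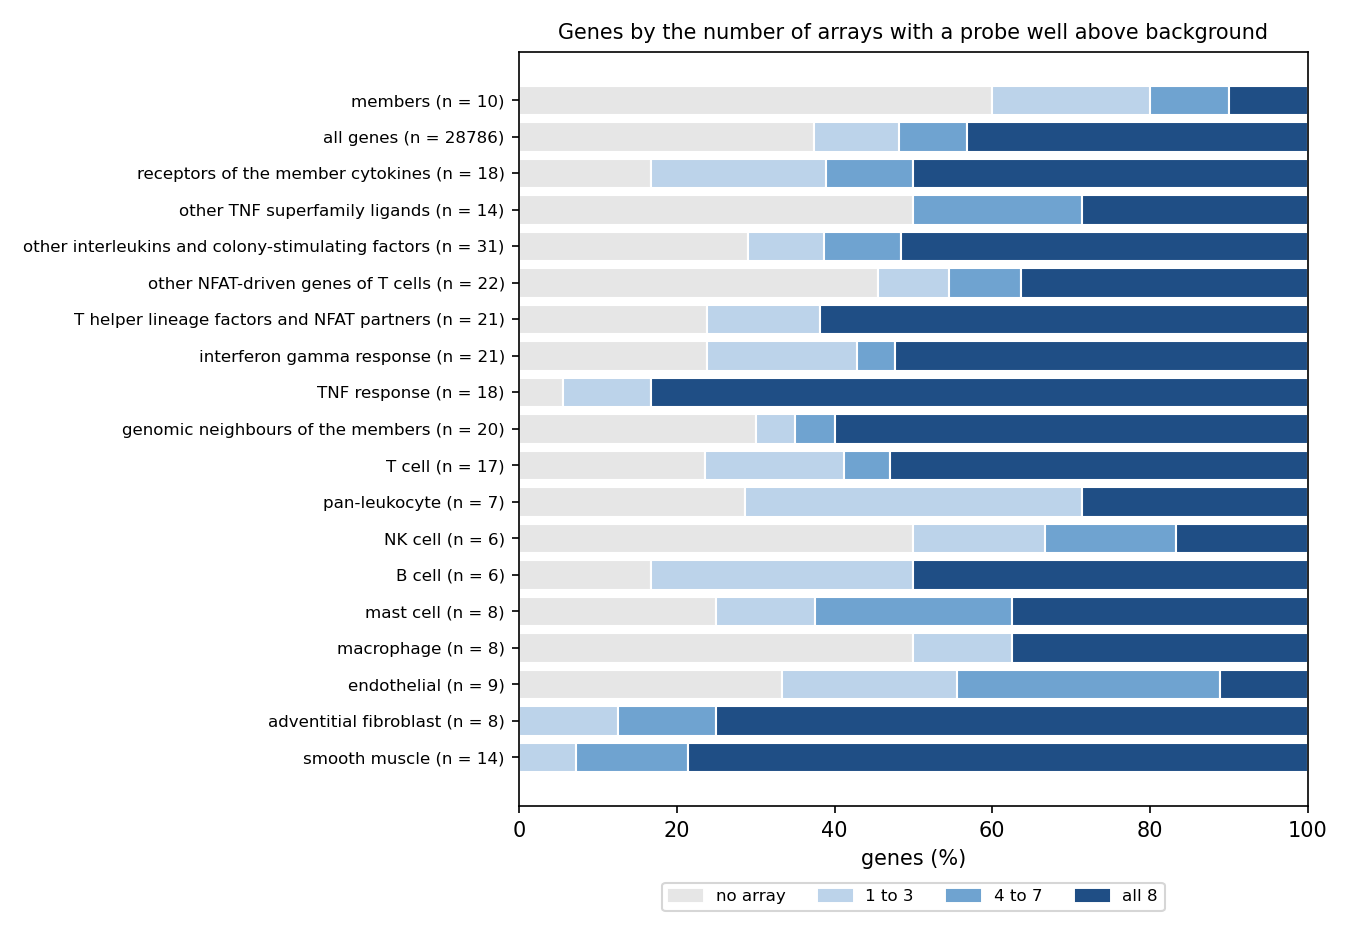
Share of genes (%) by the number of arrays on which a probe was well above background, for the 10 members, all genes on the array and each list, with the number of genes on the array in brackets. The members have 6 of 10 genes on no array, beside 37.3% of all genes, and 1 of 10 on all 8, beside 43.2%.

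Probes for markers of lymphocytes were above background in part. Of 17 T cell markers 9 were well above background on all 8 arrays, beside 43.2% of all genes, among them Cd3e, Cd4, Cd8b1 and Thy1. Cd247, Cd8a, Cd28 and Lat were on none, Cd3d on 1 and Cd3g on 2. Cd3e read 47.3 to 146 scanner units with 1 probe and 1.82 to 2.90 with the other. Their summed level, in units of each array's 75th percentile, was 9.55 to 20.7 with AngII and 11.1 to 19.0 with AngII+CsA. Ptprc, the pan-leukocyte marker CD45, was above background on 1 array with 1 of 4 probes and on none with the others. Of 7 pan-leukocyte markers 2 were on all 8 arrays (Coro1a and Itgal), beside the same 43.2% of all genes. Their sums were 1.08 to 2.27 and 1.07 to 1.95. The sums were 0.461 to 0.720 and 0.370 to 0.571 for 6 NK cell markers, 1.03 to 1.68 and 0.922 to 1.41 for 6 B cell markers, and 1.38 to 2.41 and 1.13 to 2.29 for 8 mast cell markers. They were 7.29 to 12 and 6.73 to 10.9 for 8 macrophage markers and 0.822 to 1.07 and 0.633 to 0.862 for 9 endothelial ones. Adventitial fibroblast markers summed to 321 to 1210 and 363 to 1170, and smooth muscle markers to 1030 to 2850 and 994 to 2480. Prf1, Blk, Cpa3, Kit, Adgre1, Itgam, Pecam1 and Cdh5 were above background on no array. In no marker list did a gene pass; Cnn1, a smooth muscle contractile gene, had the smallest p of these lists (log2 difference -1.71, -3.35 to -0.06, limma adjusted p = 1.00, and 0.461 with the block, after Benjamini-Hochberg adjustment). The part of any of these cells in the member signals was not tested.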

How the data were processed

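Per the file headers, the arrays (Agilent design 014868, 60-base probes placed on mm7) were scanned and read by the authors in Feature Extraction 9.5.3.1 (Agilent), and the deposited files give an intensity per spot, the processed signal. The authors' deposited table of log2 values, with equal medians of 3.008 and an unstated method and scale constant, was used as an alternative. Here log2 of the processed signal minus each array's 75th percentile was analysed in R 4.3.3 with limma 3.58.1. Control and outlier spots were left out and repeat spots averaged. The scanner marks a spot as well above background beyond a multiple of 13 background SDs, and a probe where at least 50% of its spots are marked.

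Differences were tested with lmFit and eBayes, two-sided, with Benjamini-Hochberg adjustment at 0.05, on the groups alone, over 14881 genes with a probe marked on at least 4 arrays (the brightest per gene). A ratio against the detection limit divides the brighter mean, as read, by a mean of the other group. There each array counts at its lowest marked signal, or at the probe's own where that is higher. Values of the brighter group under the limit are not changed, so the ratio is not a strict bound. The labels number cultures 1 to 4 in each group and the headers put equal numbers on 1 slide. Deviations from group means correlated at 0.70 to 0.86 between equal numbers and at -0.76 to 0.26 otherwise. Equal numbers were treated as pairs in the fits with the block and in the differences within slides. The main fit on the groups alone did not use the pairs. Intervals come from the fit on the groups alone unless the block is named, so their width includes the spread between slides. Nothing further ties the cultures to separate animals, so p-values measure the spread between these cultures.

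The members, gene lists and marker lists were chosen with earlier results of these data known. Named are all members, Rcan1, receptors on at least 4 arrays, the genes of each pathway list past the threshold (else the 2 with the smallest p), and the 3 genes most correlated with a member on all arrays. Genes at background, marker genes singled out, Xcl1, Il13, Ifngr1 and Tnfrsf1a were named after their values were seen. Lif and Tigit were not matched on the array. The fits were tested on simulated data. Some genes and 1 probe sequence are not reported here.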

Additional observations from a re-analysis of the deposited data

Results flagged for a closer look

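One value stood far from the others of its group. Il2 probe A_51_P114222 was at -4.42 (log2 relative to the 75th percentile) on AngII replicate 1, below the other AngII arrays, of which the nearest was at -3.75. That gap was 0.951 of the group's range, above Dixon's 95% limit for 4 values. Of 28 probe and group sets examined 1 passed, and chance gives about 1 in 20. The slide partner, AngII+CsA replicate 1, was at -4.47. Neither array was well above background for this probe, and the cause was not tested.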

How the results depend on the processing

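The number of members called was 0 in all 29 alternative settings. Members well above background on at least 1 array numbered 4, and 8 with the positive-and-significant mark and 7 above the 95th percentile of negative controls; those on at least 4 arrays numbered 2, and 6 with the first mark, 3 above those controls, 3 with any spot and 1 where all spots had to be marked (a rule added after the data were seen, like any spot, and each probe tested on its own with and without the filter), and 1 to 2 with an array left out. Calls over all genes numbered 0 on the groups alone in every setting, and 4 with the replicate block, 3 with the block and normexp, 6 with the replicate number as a random block and 2 with the block and every kept probe on its own, but 0 where the blocked fit kept the dim probes, by gene or by probe (smallest adjusted p 0.138 and 0.195), so the Rcan1 call was lost there too. Leaving out 1 array, or 1 pair with the block, gave 0 calls, with a smallest adjusted p of 0.0565 to 0.298 for the pairs, so it was also lost without any 1 pair. The block changed no call of a member.

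The Fasl difference was negative in 22 of 29 settings. It turned to 0.01 with median centring, quantile normalization and the authors' table, ranged from -0.35 to 0.09 with an array left out (positive without AngII+CsA replicate 1 or 3) and from -0.33 to 0.08 with a pair left out under the block (0.02 without replicate 1 and 0.08 without replicate 3). The Tnf difference was negative in all 28 settings that gave it, from -0.42 to -0.02. Its size moved with the scaling: it was -0.12 with median centring, -0.10 with quantile normalization and -0.03 in the authors' table. In scanner units Tnf was lower with AngII+CsA on slide 3 only. With only probes marked on all 8 arrays Tnf was not tested. Median centring moved the median over all genes from -0.023 to 0.075. Signals within a few units of background, single spots per array and 4 arrays a group limit what could be seen: the interval of Tnf still spans folds of 0.483 to 1.53.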

Other observations

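Xcl1, which encodes the lymphocyte chemokine lymphotactin, had the most one-sided signal among the other NFAT-driven T cell genes, and was singled out after its values were seen. It read 29.98, 10.7, 5.59 and 11.4 scanner units with AngII and 2.21, 2.15, 6.16 and 4.57 with AngII+CsA. It was well above background on 2 AngII arrays and on no AngII+CsA array, and relative to each array's 75th percentile it was lower with AngII+CsA in 4 of 4 pairs. With each AngII+CsA value under the detection limit raised to it, the AngII mean was 1.47-fold higher, which restates why the gene was singled out. The AngII reading of 5.59 also lay under the limit and was kept as read, so this is not a lower bound. With no filter the log2 difference was -2.02 (limma adjusted p = 1.00, and 0.421 with the block, after Benjamini-Hochberg adjustment). The array holds 1 Xcl1 probe, a single spot.

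H2-Aa, an interferon gamma response gene, showed the opposite on 1 of its 2 probes, well above background on 0 AngII arrays and on 2 AngII+CsA arrays, with 40.6 units on AngII+CsA replicate 3, 12.6 on replicate 2 and 3.05 to 10.7 on the other 6 arrays. With each AngII value under the detection limit raised to it in the same way, its AngII+CsA mean was 0.954-fold that of AngII. The unmarked 10.7 on AngII replicate 2 lay above the lowest marked signal of that array, 9.60, and was kept as read.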
